A study of Mus musculus with 8 samples.

Results

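Motor neurons of the spinal cord use acetylcholine to drive skeletal muscle, and amyotrophic lateral sclerosis (ALS) kills them. The residual transcripts of these cells were examined through 10 genes chosen by name, *Chat*, *Slc18a3*, *Slc5a7*, *Ache*, *Isl1*, *Isl2*, *Mnx1*, *Prph*, *Esrrg* and *Mmp9*, out of 55291 genes in the count table. All 10 passed the filter on low counts, which left 19470 genes to test. RNA was sequenced from lumbar spinal cord of 8 male C57BL/6J mice that carry the *SOD1*G93A transgene, a mutant human superoxide dismutase that causes an ALS-like disease. Mice E1776, E5231, E5248 and E5568 (*Ager*-deleted) were SOD1G93A Ager fl/fl Cx3cr1 Cre/+, and mice E5386, E5642, E6578 and E6732 (Cre controls) were SOD1G93A Cx3cr1 Cre/+ with intact *Ager*, the gene for the receptor RAGE. Both genotypes carry a tamoxifen-inducible Cre in the *Cx3cr1* locus, so both have a single working copy of *Cx3cr1*, and both received tamoxifen (0.2 µg daily, at 12 weeks of age). *Cx3cr1* is expressed by microglia but also by other macrophages and monocytes, so the deletion is not limited to microglia by the promoter. All 8 mice are labelled as 120 days old, whereas the text of the study describes this tissue as taken at the humane endpoint. Mice without the transgene were not analysed here, so the levels describe what remained in diseased cord and not how much was lost.

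A cholinergic terminal makes acetylcholine with choline acetyltransferase (*Chat*), loads it into vesicles with the vesicular transporter (*Slc18a3*), breaks it down with acetylcholinesterase (*Ache*) and takes the freed choline back up with the high-affinity transporter (*Slc5a7*). The homeodomain factors *Isl1*, *Isl2* and *Mnx1* set motor neuron identity in the embryo. *Prph* encodes peripherin, an intermediate filament of neurons with peripheral axons, *Esrrg* encodes a nuclear receptor that marks gamma motor neurons, which innervate muscle spindles, and *Mmp9* encodes a matrix metalloproteinase that marks the fast alpha motor neurons most vulnerable in ALS. Other cholinergic neurons of the cord share the transmitter genes, and other neurons and blood cells express some of the rest.

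*Slc18a3* (chr14:32462438-32464850, minus strand) lies wholly inside *Chat* (chr14:32408203-32465989, minus strand), in an intron, and shares 0 bp of exon with it, so reads on exons of the 2 genes are counted apart. The other genes lie on GRCm38 at chr17:54273590-54299034 (*Slc5a7*, minus strand), chr5:137287519-137294466 (*Ache*, plus), chr13:116298281-116309689 (*Isl1*, minus), chr9:55538672-55546180 (*Isl2*, plus), chr5:29473034-29478470 (*Mnx1*, minus), chr15:99055174-99058978 (*Prph*, plus), chr1:187608791-188214885 (*Esrrg*, plus) and chr2:164940780-164955850 (*Mmp9*, plus). Only *Ache* among them shares exon with another gene, 98 bp (2.12% of its exons) with the lincRNA *Gm42456* on the opposite strand. The bases just upstream of *Chat*, *Slc18a3* and *Prph* are shown because levels of these 3 genes were positively related across the mice (r = 0.77 to 0.94), and those of *Slc5a7* because the choline transporter acts in the same terminals (RefSeq, GRCm38.p6, each read 5′ to 3′ on the gene's own strand and ending at or just before the gene's start). Capitals mark 2 motifs, searched for on both strands. The TATA box is TATAAA. The GC box was spelled GGGCGG in the search, and on the opposite strand it is read as CCGCCC.
Chat upstream, chr14:32465990-32466159: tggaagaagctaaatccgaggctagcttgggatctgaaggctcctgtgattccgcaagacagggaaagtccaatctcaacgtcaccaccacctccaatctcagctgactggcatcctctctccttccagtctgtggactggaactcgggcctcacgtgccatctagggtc
Slc18a3 upstream, chr14:32464851-32465100: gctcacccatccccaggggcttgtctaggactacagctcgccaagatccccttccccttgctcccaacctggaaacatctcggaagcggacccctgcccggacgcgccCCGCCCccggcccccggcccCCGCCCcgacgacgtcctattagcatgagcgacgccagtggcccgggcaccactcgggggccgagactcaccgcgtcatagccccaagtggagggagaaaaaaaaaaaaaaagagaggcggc
Slc5a7 upstream, chr17:54299035-54299284: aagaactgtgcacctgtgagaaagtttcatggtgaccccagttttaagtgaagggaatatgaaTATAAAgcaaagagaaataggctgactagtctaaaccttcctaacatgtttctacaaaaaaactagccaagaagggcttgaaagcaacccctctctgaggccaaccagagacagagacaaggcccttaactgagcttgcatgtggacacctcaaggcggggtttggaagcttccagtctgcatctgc
Prph upstream, chr15:99054924-99055173: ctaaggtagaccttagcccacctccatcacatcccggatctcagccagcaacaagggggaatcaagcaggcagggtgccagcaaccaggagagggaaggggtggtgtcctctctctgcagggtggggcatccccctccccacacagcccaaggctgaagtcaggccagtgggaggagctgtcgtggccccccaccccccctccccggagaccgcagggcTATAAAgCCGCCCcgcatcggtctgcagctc
*Slc18a3* held 2 GC boxes, *Slc5a7* 1 TATA box and *Prph* 1 of each without overlap, whereas *Chat* held neither. Matches were counted anywhere in the window, at any distance from the start. A match of letters is thus not shown to act as a promoter element. Of 32851 mouse promoter windows of 250 upstream bases, 12.4% hold TATAAA and 32.7% hold GGGCGG. The core that LIM homeodomain factors such as Isl1 bind, TAATTA, is in 4.84% of the windows and was found in none of the windows of the 9 genes with a promoter entry, which says only that these letters are not in them.

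Libraries held between 31148047 and 40324897 counts on genes, and 3 counts correspond to between 0.0729 and 0.0975 CPM, the read count scaled to library size, here after TMM normalization. Markers of the labelled tissue were present in all 8 libraries, with *Hoxc10*, a lumbar patterning gene, at 49.2 to 63.5 CPM, the synaptic gene *Snap25* at 1160 to 1783 CPM and *Cx3cr1* at 75.5 to 123 CPM. A trio of libraries stood apart for transcripts of other tissues. Controls E5386 and E5642 held skeletal muscle transcripts (*Acta1* at 241 and 377 CPM, against 1.27 to 5.81 CPM in the other 6 mice), and control E6732 held liver transcripts (*Alb* at 452 CPM, against at most 0.762 CPM elsewhere). The targeted gene *Ager* was at 0.889, 1.51, 1.02 and 1.34 CPM in *Ager*-deleted mice and at 1.53, 2.22, 2.18 and 2.41 CPM in the controls, without overlap (log2 fold change −0.81, exact test adjusted p = 0.252).

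None of the 10 genes differed between genotypes past the threshold. In edgeR's exact test with Benjamini-Hochberg adjustment over all genes tested, 0 of the 10 had an adjusted p under 0.05, against 0.0719% of all tested genes (14 of 19470), and each of the 10 had an adjusted p of 1. At an unadjusted p under 0.05, 1 of the 10 passed (*Ache*), against 4.26% of all tested genes. The quasi-likelihood test called 0 of the 10 (0.00514% of all genes), passed 1 (*Ache*) at an unadjusted p under 0.05 (6.71% of all genes) and gave a lowest adjusted p of 0.742. When dispersions were estimated as common and then tagwise, the exact test also called 0 of the 10, against 0.401% of all genes. In none of the 10 did the genotypes separate completely, against 3.88% of all tested genes. The log2 fold change (*Ager*-deleted over control) was above 0 in 2 and below 0 in 8, with a median of −0.09, and the median over all tested genes was 0.0069. The mean log2(CPM + 1) over the 10 genes was 3.78 ± 0.11 in *Ager*-deleted mice and 3.87 ± 0.12 in controls (SD, n = 4 each). In whole cord, fewer motor neurons and less RNA per motor neuron cannot be told apart.

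**Figure D1:**
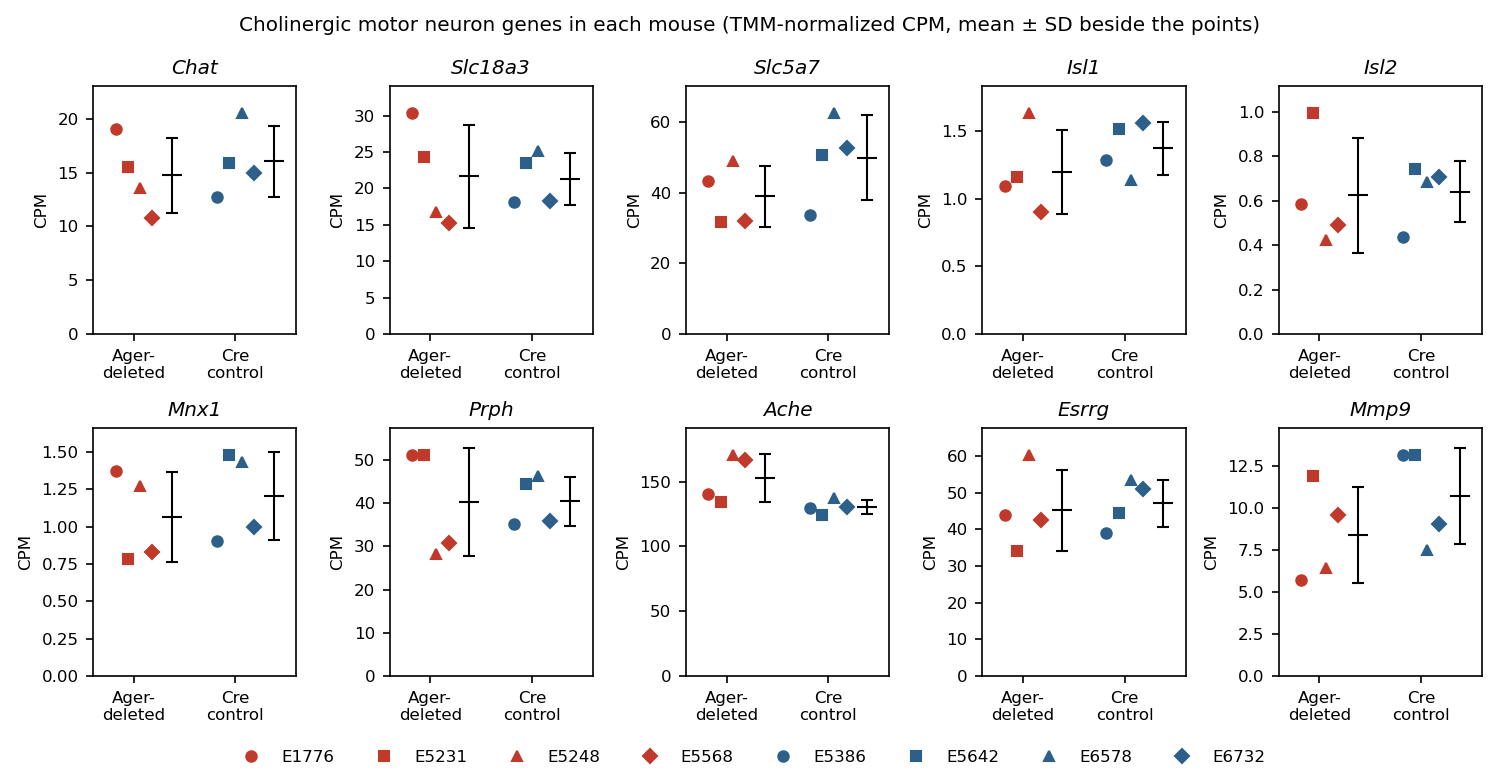
TMM-normalized CPM (linear axis from 0) of the 10 genes in each mouse, with 1 marker per mouse, *Ager*-deleted in red and Cre controls in blue, and the mean ± SD (n = 4) beside the points. The genotypes overlap in every panel; *Ache* comes closest to separating, with 3 of 4 *Ager*-deleted mice above all 4 controls.

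Of the genes that make, load and recover the transmitter, *Chat* was at 19.0, 15.6, 13.6 and 10.8 CPM in *Ager*-deleted mice and at 12.7, 15.9, 20.6 and 15.0 CPM in the controls. The highest mouse was a control (E6578) and the lowest an *Ager*-deleted one (E5568), with the other 6 mixed between them. *Chat* differed by a log2 fold change of −0.12 (95% interval −0.53 to 0.29, exact test p = 0.546, exact permutation p = 0.6). *Slc18a3* was at 30.4, 24.3, 16.7 and 15.3 CPM in *Ager*-deleted mice and at 18.2, 23.5, 25.2 and 18.3 CPM in the controls. The *Ager*-deleted mice thus held both the highest and the 2 lowest values, and their means differed little (21.7 ± 7.05 against 21.3 ± 3.58 CPM, log2 fold change 0.03, 95% interval −0.44 to 0.49). *Slc5a7* was at 43.4, 31.6, 49.0 and 32.0 CPM in *Ager*-deleted mice and at 33.7, 50.6, 62.7 and 52.6 CPM in the controls. Of the 4 controls, 3 were above every *Ager*-deleted mouse and E5386 was not. Its log2 fold change of −0.36 had a 95% interval from −0.78 to 0.07 (exact test p = 0.0808, adjusted p = 1), so that *Ager*-deleted cord held between 0.581 and 1.051 times the control level. Without the muscle-rich controls E5386 and E5642, the log2 fold changes were −0.57 for *Slc5a7* (adjusted p = 0.402) and −0.28 for *Chat* (adjusted p = 1, both exact test).

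*Ache*, which ends the signal by splitting acetylcholine, was at 140, 134, 171 and 166 CPM in *Ager*-deleted mice and at 129, 124, 138 and 131 CPM in the controls. All *Ager*-deleted mice but E5231 were above every control. The log2 fold change was 0.23 (95% interval 0.04 to 0.42, 1.17-fold), with an unadjusted p of 0.024 in the exact test, an exact permutation p of 0.0571 and an adjusted p of 1. Other neurons express *Ache* too. Of the 19 pan-neuronal genes 16 had a log2 fold change above 0 (10122 of all 19470 genes did), with a median of 0.10, and 0 of them passed an unadjusted p of 0.05. The mean log2(CPM + 1) of that list was 8.28 ± 0.14 in *Ager*-deleted mice and 8.21 ± 0.10 in controls (SD, n = 4 each), a difference within the spread between mice. Across the 8 mice *Ache* followed the mean level of that list (r = 0.81, rho = 0.76, exact permutation adjusted p = 0.167 for r). With that level as a covariate its log2 fold change was 0.16 (quasi-likelihood adjusted p = 0.459), against 0.23 without it (quasi-likelihood adjusted p = 0.742). The part of neuronal content in the difference was not tested further.

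The 3 identity factors were near the limit of what these libraries resolve, with 35 to 64 counts a mouse for *Isl1*, 29 to 54 for *Mnx1* and 15 to 37 for *Isl2*. *Isl1* was at 1.09, 1.16, 1.64 and 0.905 CPM in *Ager*-deleted mice and at 1.29, 1.51, 1.14 and 1.56 CPM in the controls. An *Ager*-deleted mouse (E5248) was highest and another (E5568) lowest. *Isl2* was at 0.584, 0.997, 0.423 and 0.491 CPM in *Ager*-deleted mice and at 0.438, 0.741, 0.683 and 0.705 CPM in the controls, with *Ager*-deleted mice again at both ends. *Mnx1* was at 1.37, 0.782, 1.27 and 0.827 CPM in *Ager*-deleted mice and at 0.903, 1.48, 1.43 and 0.997 CPM in the controls. In both genotypes 2 mice were near the top of the *Mnx1* range and 2 near the bottom. The log2 fold changes were −0.20, −0.04 and −0.17 for *Isl1*, *Isl2* and *Mnx1* (exact test p = 0.449, 0.962 and 0.556). Counting error alone gives a coefficient of variation of 14.6%, 20.9% and 15.7% at their mean counts. Over the 8 mice 20.1%, 30.3% and 25.3% was observed. Differences of the size seen were not resolved with these counts and 4 mice per genotype. The quasi-likelihood standard errors of the log2 fold change were 0.21, 0.30 and 0.26 for *Isl1*, *Isl2* and *Mnx1*. That of *Prph*, with 1002 to 2011 counts a mouse, was 0.20.

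Among the structural and subtype genes, *Prph* was at 51.1, 51.3, 28.3 and 30.9 CPM in *Ager*-deleted mice and at 35.3, 44.4, 46.3 and 35.8 CPM in the controls. The *Ager*-deleted mice split, with E1776 and E5231 above all controls and E5248 and E5568 below all of them, while the means were almost the same (40.4 ± 12.5 and 40.5 ± 5.70 CPM). *Esrrg* was at 43.9, 34.0, 60.4 and 42.5 CPM in *Ager*-deleted mice and at 39.1, 44.6, 53.5 and 51.1 CPM in the controls. Its highest and lowest values were both in *Ager*-deleted mice (log2 fold change −0.06, 95% interval −0.41 to 0.30). *Mmp9* was at 5.71, 11.9, 6.41 and 9.59 CPM in *Ager*-deleted mice and at 13.1, 13.2, 7.51 and 9.02 CPM in the controls. The 2 highest mice were the muscle-rich controls E5386 and E5642. The log2 fold change of *Mmp9* was −0.35 (95% interval −0.92 to 0.21, exact test p = 0.201), and it was 0.01 without those 2 mice.

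**Figure D2:**
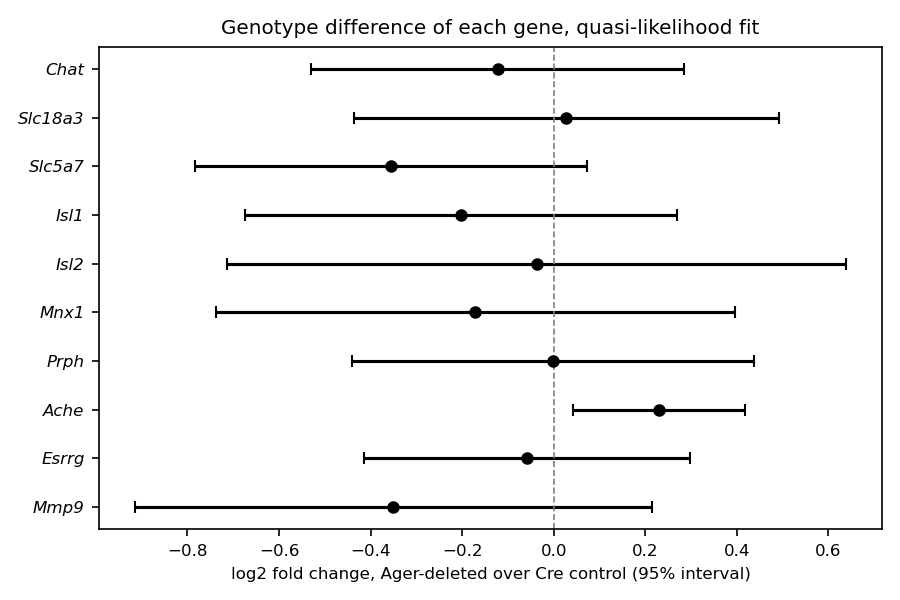
Log2 fold change (*Ager*-deleted over Cre control) of each gene from the quasi-likelihood fit, as points with 95% intervals (n = 4 mice per genotype). The interval of *Ache* (0.04 to 0.42) is the only 1 of the 10 that leaves out 0; that of *Slc5a7* reaches from −0.78 to 0.07.

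Scaled by exon length (RPKM, CPM divided by the exon length in kilobases), *Ache* was the most abundant of the 10 at a mean of 30.6 RPKM over the 8 mice, followed by *Prph* at 20.2 RPKM. *Slc18a3* (8.90 RPKM), *Slc5a7* (7.87 RPKM) and *Esrrg* (7.43 RPKM) came next, and neighbours in this trio overlapped, with the higher gene above the next in only 5 of 8 mice. *Chat* (3.27 RPKM) and *Mmp9* (2.7 RPKM) could not be ordered either, *Chat* being the higher in 4 of 8 mice. The identity factors were lowest, at 0.503 RPKM for *Mnx1*, 0.325 RPKM for *Isl1* and 0.289 RPKM for *Isl2*. Although *Slc18a3* sits within *Chat*, its CPM was 1.22 to 1.6 times that of *Chat* in every mouse (1.45 ± 0.17 times in *Ager*-deleted mice and 1.34 ± 0.13 times in controls).

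The 10 genes did not move as a single block across mice. *Chat* was related to *Slc18a3* (r = 0.88, rho = 0.93, exact permutation p = 0.0033 and 0.00223, adjusted p = 0.0297 and 0.0201 over 9 relations), and r was 0.91 without the 2 mice farthest from the median of *Chat* and 0.90 on values centred within genotype. *Prph* followed *Chat* with r = 0.77 and rho = 0.76 (adjusted p = 0.11 and 0.165, exact permutation). The other 7 relations of *Chat* had adjusted p-values from 0.195 upward, among them *Slc5a7* (r = 0.64), whose relation fell to 0.18 without the 2 mice farthest from the median. Centred within genotype, *Slc18a3* and *Prph* had r = 0.94, and *Slc5a7* had r = 0.84 with *Esrrg* and 0.81 with *Mnx1*, while *Mnx1* and *Esrrg* had r = 0.59 with each other. *Ache* ran against *Prph* (r = −0.83) and with *Esrrg* (0.73). Of the 45 pairs, 26 were positive, 7 were above 0.7 and 5 below −0.7, with a median r of 0.10; these values are descriptions over 8 mice. The r of *Chat* with the effective library size was −0.39.

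**Figure D3:**
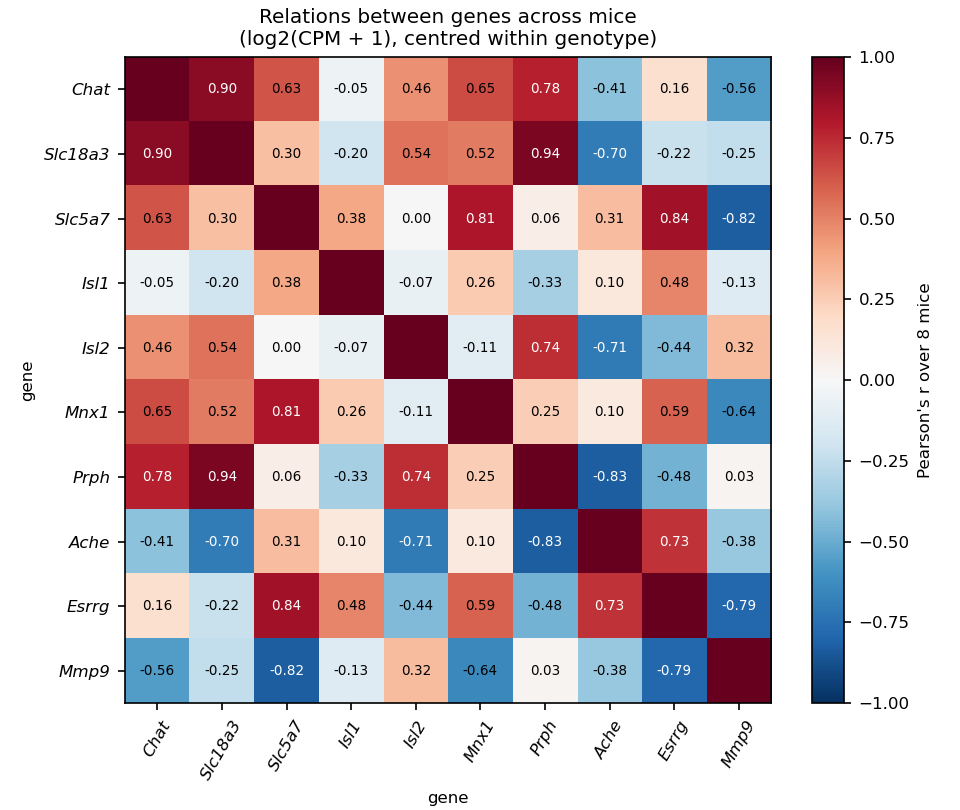
Pearson's r over 8 mice between each pair of the 10 genes, on log2(CPM + 1) centred within genotype; red is positive, blue negative. *Chat*, *Slc18a3* and *Prph* are positive with each other (0.78 to 0.94), *Slc5a7* goes with *Esrrg* and *Mnx1*, and *Mmp9* is negative with *Slc5a7* (−0.82) and *Esrrg* (−0.79).

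Each of the 10 genes was then set beside the mean level of 13 other gene lists across the mice (130 relations, chosen after the data were seen). *Chat* rose and fell with the mean level of a list of 20 other genes chosen for motor neuron identity (r = 0.97, rho = 0.98, exact permutation p = 0.000298 and 0.000397, adjusted p = 0.0258 for both). Its r was 0.92 without the 2 farthest mice and 0.97 centred within genotype. *Slc18a3* and *Slc5a7* had r = 0.78 with the same list, and neither passed after adjustment (adjusted p = 0.167, exact permutation). For the other genes r with that list was 0.72 (*Mnx1*), 0.65 (*Prph*), 0.45 (*Isl2*), 0.37 (*Esrrg*), 0.17 (*Isl1*), −0.37 (*Ache*) and −0.44 (*Mmp9*). In whole cord the level of that list is not a measure of motor neuron number, nor of motor neuron transcripts alone. Its genes are not limited to motor neurons, and among them is *Hoxc10*, used above as a marker of the tissue. *Mmp9*, which neutrophils also store in their granules, followed the 13 neutrophil genes (r = 0.97, rho = 0.90, exact permutation adjusted p = 0.0258 and 0.134), with r = 0.99 without the 2 farthest mice and 0.98 centred within genotype. Its r with single neutrophil genes ran from 0.86 (*Elane*) to 0.98 (*Mmp8*). *S100a8*, a neutrophil calcium-binding protein, was at 6.58, 56.1, 16.7 and 37.7 CPM in *Ager*-deleted mice and at 68.9, 59.6, 18.6 and 38.6 CPM in the controls. It was lowest in E1776, as *Mmp9* was, and highest in E5386 and E5642, the mice with most *Mmp9*. With the neutrophil level as a covariate, the log2 fold change of *Mmp9* was −0.13 (quasi-likelihood adjusted p = 0.884). *Mnx1* went against the dorsal root ganglion list (rho = −0.98, exact permutation adjusted p = 0.0258, r = −0.93, adjusted p = 0.0613), on 29 to 54 counts a mouse.

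**Figure D4:**
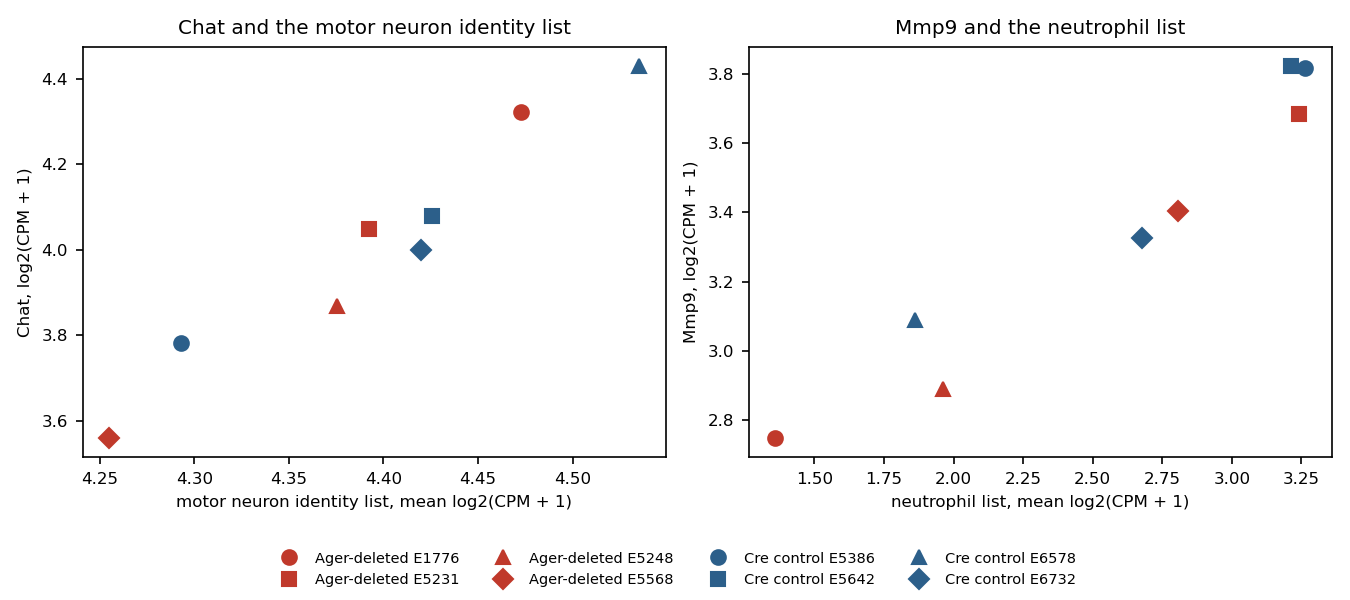
Left, *Chat* against the mean level of the motor neuron identity list; right, *Mmp9* against that of the neutrophil list (all axes log2(CPM + 1), not starting at 0, 1 marker per mouse). In both panels the 2 genotypes lie along the same rising line (r = 0.97 in each).

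By likeness of pattern over the 8 mice, the 5 genes closest to *Chat* were *Dlc1* (r = 0.97), *Trim17* (0.94), *Kcnj14* (0.93), *Ptprg* (0.91) and *Pappa* (0.91). *Dlc1* ran from 52.9 CPM in E5568 to 64.2 CPM in E6578, the same mice that were lowest and highest for *Chat*. *Kcnj14*, an inward-rectifier potassium channel, ran from 3.95 to 7.35 CPM between the same 2 mice.

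The wider acetylcholine pathway (26 genes, all tested) had 0 genes called, with 15 log2 fold changes above 0 and 11 below and a median of 0.02. At an unadjusted p under 0.05, 2 were higher and 2 lower in *Ager*-deleted mice, and the genotypes of 2 did not overlap, against 4.26% and 3.88% of all tested genes. *Chrna4*, a subunit of neuronal nicotinic receptors, was at 42.4, 38.1, 50.9 and 43.4 CPM in *Ager*-deleted mice and at 34.8, 32.0, 34.6 and 38.1 CPM in the controls, all lower (log2 fold change 0.32, exact test p = 0.00401, adjusted p = 0.504). *Bche*, the cholinesterase made largely outside neurons, was at 8.56, 8.25, 9.0 and 9.15 CPM and at 11.2, 9.85, 11.5 and 13.7 CPM in the same order. Every control was above every *Ager*-deleted mouse for *Bche* (log2 fold change −0.40, exact test p = 0.0058, adjusted p = 0.613). The others, named after their values were seen, were *Lynx1*, a modulator of nicotinic receptors (log2 fold change 0.19, exact test p = 0.0431), and *Chrna1*, the receptor subunit of muscle (−0.93, p = 0.0485), which was highest in the muscle-rich controls E5386 (1.31 CPM) and E5642 (2.44 CPM).

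Other lists of genes linked to motor neurons gave no calls either, and the quasi-likelihood test called 0 genes in each of them. Of 20 further identity genes 8 were above 0 and 12 below (median log2 fold change −0.01). Among them 2 passed an unadjusted p of 0.05 in the exact test, and the genotypes of 2 did not overlap. The shares over all tested genes were 4.26% and 3.88%. *Creb5*, a transcription factor, was at 13.5, 12.5, 14.3 and 9.87 CPM in *Ager*-deleted mice and at 16.9, 15.5, 19.3 and 19.5 CPM in the controls, without overlap (log2 fold change −0.50, exact test p = 0.0009, adjusted p = 0.214). *Etv1*, an ETS factor, also separated the genotypes, at 32.8 to 41.1 CPM in *Ager*-deleted mice and 43.3 to 49.6 CPM in controls (log2 fold change −0.29, adjusted p = 0.642, exact test). Of 15 alpha motor neuron genes 4 were above 0 and 11 below (median −0.04), and their lowest p-values were those of *Fign* (−0.21) and *Kcnq5* (0.16). Of 8 gamma motor neuron genes 6 were above 0 (median 0.08), among them *Esrrb* (0.22), a relative of *Esrrg*, while *Stxbp6* was at −0.10. The preganglionic and cholinergic interneuron list, chosen for other cholinergic cells of the cord, had 3 of 6 genes above 0 (median −0.04, *Zeb2* −0.11, *Mme* −0.16). *Zeb2*, at 134 to 182 CPM, was far above *Chat* (10.8 to 20.6 CPM), so the list was not read as specific to those cells. Of 15 genes of the axotomy response, which injured motor neurons switch on, 6 were above 0 (median −0.04, *Vgf* 0.15, *Npy* 0.25). None of these alpha, gamma, interneuron and axotomy genes had an unadjusted p under 0.05 in the exact test.

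Markers of other cells that a cord dissection can hold were read in the same way. Of the 12 Schwann cell genes 11 were below 0 (median log2 fold change −0.26), yet their mean log2(CPM + 1) was 4.47 in both genotypes, with control E5386 at 2.66 and the other 3 controls at 4.87 to 5.26. In that list *Cdh19* separated the genotypes (−0.48, exact test adjusted p = 0.14), as 3.88% of all tested genes did, while *Pmp2* was at −1.20. Sensory neuron genes of the dorsal root ganglion had 7 of 9 tested genes above 0 (*Piezo2* 0.21 on 285 to 771 counts, *Avil* 0.19 on 41 to 128). Of the untested genes, *Mrgprd*, *Scn10a*, *Prdm12*, *Scn11a* and *Tmem233* had at most 1, 2, 3, 10 and 20 counts in any mouse. Neutrophil genes were below 0 in 12 of 13 (median −0.42, *S100a8* −0.66, *Cxcr2* −0.67), erythroid genes in 9 of 9 (*Hbb-bt* −0.65, *Alas2* −0.53) and bone genes in 8 of 9 (*Acp5* −0.85, *Ibsp* −1.69). Of all 19470 genes 9348 were below 0. None of the neutrophil and erythroid genes had an unadjusted p under 0.05 in the exact test, and 1 bone gene did. The neutrophil list had a mean log2(CPM + 1) of 2.34 ± 0.84 in *Ager*-deleted mice and 2.75 ± 0.65 in controls. For the erythroid list these were 3.23 ± 0.71 and 3.65 ± 0.50 (SD, n = 4 each). Microglial genes were below 0 in 7 of 10 (*P2ry12* −0.32), and liver genes in 5 of 6 (*Alb* −7.75, *Ttr* −5.73), *Alb* and *Ttr* being high in E6732 alone. Skeletal muscle was the only list with calls in the exact test with the main dispersions, 4 of 17 against 0.0719% of all genes. All were lower in *Ager*-deleted mice (*Myh4*, *Musk*, *Ckm* and *Atp2a1*). The quasi-likelihood test called 0 of the 17 (adjusted p = 0.705 for each of the 4), and *Myh4*, *Ckm* and *Atp2a1* were far higher in E5386 and E5642 than in the other 6 mice. *Musk* was at 0.254 to 0.310 CPM in *Ager*-deleted mice and 0.559 to 0.895 CPM in controls. Its genotypes did not overlap, as in 3.88% of all tested genes, on 10 to 30 counts a mouse. With common and tagwise dispersions, the exact test also called *Alb* and *Ttr* of the liver list (adjusted p = 0.00775 and 0.0106).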

How the data were processed

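The authors prepared libraries from polyadenylated RNA with a stranded kit. Per the submitters' processing notes, reads were trimmed with Trimmomatic 0.36, aligned to mm10 with STAR 2.7.3a and counted per gene with featureCounts (Subread 1.6.3); the strand setting is not given in the sources used here. The authors deposited raw counts per gene (unnormalized) and, for 19470 genes, log2 values of TMM-normalized CPM made with edgeR 3.26.8. The deposited log2 values were used only as a check: log2 CPM recalculated here (prior count 2) differed by at most 4.78e-06. Columns were assigned to mice by ID. No pair of libraries agreed within sampling noise (chi-square per degree of freedom 15.7 to 117 over 28 pairs).

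From the counts, filterByExpr kept genes at its minimum of 10 counts, TMM set the scale, and exactTest of edgeR 4.0.16 (R 4.3.3) compared the genotypes with dispersions from estimateDisp without a design matrix. The study's methods name TMM and exactTest but no dispersion step, and common and tagwise dispersions are given as an alternative. That alternative called 78 genes, the number the study reported. Whether they are the same genes was not tested. The threshold was an adjusted p of 0.05. Standard errors and 95% intervals came from glmQLFit. Values per mouse were compared by exact two-sided permutation over 70 assignments of log2(CPM + 1), whose smallest p is 0.0286, and correlations by exact permutation over all pairings of 8 mice. The tests were checked on simulated data with log2 fold changes larger than any of the 10 genes showed, so differences of the size seen were not covered. RPKM used exon lengths from GENCODE (GRCm38), matched by symbol. Intervals and floors cover counting error only where they rest on counts of a single library.

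All 10 genes are named. From each other list, genes with an adjusted p under 0.05 are named or, with none, the 2 with the smallest p (1 such gene is not reported here); the 5 genes most like *Chat* had a mean log2(CPM + 1) of at least 1. The members and lists were written by hand and chosen with earlier results of these data known. Alternatives were other normalizations, filters, dispersions and tests (DESeq2 1.42.0, limma-voom 3.58.1), covariates and leaving out mice.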

Additional observations from a re-analysis of the deposited data

Results flagged for a closer look

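Of 20 groups of 4 mice formed by the 10 cholinergic motor neuron genes and the 2 genotypes, 0 held a mouse far from the other 3. Over all 118 groups examined, which include the other named genes and list levels, 7 did. Chance alone gives about 1 in 20. In the *Ager*-deleted group, *Zeb2* was at 134 CPM in E5568 against 158 to 160 CPM in the other 3 mice, *Avil* at 3.45 CPM in E5231 against 1.92 to 2.17 CPM, and *Myh4* at 1.21 CPM in E5568 against 0.431 to 0.559 CPM. In the control group, *Alb* was at 452 CPM in E6732 against at most 0.164 CPM, *Ttr* at 28.1 CPM in E6732 against at most 0.520 CPM, and the liver list had a mean log2(CPM + 1) of 6.53 in E6732 against 2.55 to 2.75. The Schwann cell list had a mean log2(CPM + 1) of 2.66 in control E5386 against 4.87 to 5.26 in the other 3 controls.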

How the results depend on the processing

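With 4 mice per genotype and 15 to 64 counts a mouse for the identity factors, modest differences were not resolved. The count of cholinergic motor neuron genes called was 0 under every alternative run. The lowest adjusted p was 0.292 (*Slc5a7*), then 0.459 (*Ache*). *Ache* stayed above 0 and *Slc5a7* and *Mnx1* below 0 in every alternative run. Genes called over the whole table numbered 14, and 8 with at least 1 CPM in 4 mice, 78 with common and tagwise dispersions, 1 each with the quasi-likelihood test, with limma-voom and with the skeletal muscle level as a covariate, 25 with DESeq2, 48 at an adjusted p under 0.1, 67 without E5386 and E5642, and 6 without E5386, E5642 and E6732, where the lone control was assumed to vary like the other mice. Leaving out 1 mouse gave 3 (without E5231) to 98 (without E6578). Genes of the 10 at an unadjusted p under 0.05 numbered 2 with common and tagwise dispersions and 0 (without E5568 or E5642) to 2 (without E5231) when 1 mouse was left out. Genes of the 10 whose genotypes do not overlap numbered 1 with library size only, 1 without E5386 and E5642, and 0 to 1 when 1 mouse was left out. With fewer mice in a group, complete separation arises more easily by chance, and the run with a lone control is left out of the separation counts. The share over all genes was not calculated for these settings, so these counts are not read as separation. The difference in mean level was −0.094, between −0.153 and −0.0415 when 1 mouse was left out, and −0.269 as a mean of z-scores, which is on another scale.

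Log2 fold changes changed sign, with no call, as follows. The cause was not tested. *Prph* was 0.0247 with library size only and 0.00268 without a filter. With the skeletal muscle level as a covariate, *Slc18a3* was −0.0401 and *Mmp9* 0.0505. Without E5386 and E5642 they were −0.00875 and 0.0123, and without E5386, E5642 and E6732 they were −0.216 and 0.158, with *Isl1* at 0.07. Leaving out 1 mouse gave −0.269 to 0.0196 for *Chat*, −0.182 to 0.163 for *Slc18a3*, −0.35 to 0.106 for *Isl2*, −0.138 to 0.136 for *Prph* and −0.229 to 0.0559 for *Esrrg*. The other genes kept their sign whichever mouse was left out, although *Isl1* and *Mmp9* changed sign in runs given above. Their ranges were −0.319 (without E1776) to −0.0481 (without E5231) for *Mnx1* and −0.389 (without E5248) to −0.0906 (without E5568) for *Isl1*. *Slc5a7* ranged from −0.51 (without E5386) to −0.227 (without E6578) and *Mmp9* from −0.563 (without E5231) to −0.203 (without E1776). *Ache* ranged from 0.173 (without E5248) to 0.288 (without E5231). *Isl2* had no value under the filter of 1 CPM. No paired analysis was possible because the labels give the mice no shared numbers.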
